A study of Mus musculus with 8 samples.

Results

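The genes of the interleukins, the tumour necrosis factor (TNF) superfamily, the colony-stimulating factors (CSF) and their receptors were read from arrays of the mouse ventral prostate. Members were the probe sets with a single gene symbol that begins with Il and a digit, with Tnfsf or Tnfrsf, with Csf1, Csf2 or Csf3, or that is Tnf. This gave 148 probe sets of the 22690 in the table, for 101 of the 12393 genes tested. By role, 41 of the 101 were ligands, 50 were receptors, 9 were antagonists or decoy receptors, and 1, Il4i1, encodes an enzyme. The RNA came from male FVB mice aged 8 weeks, with 4 arrays from mice transgenic for polyoma virus middle T antigen (MT) and 4 from wild-type mice. Middle T is a viral oncoprotein that engages Src-family kinases and phosphatidylinositol 3-kinase, and the study set prostates that express it, described as carcinoma, against normal ones. The sources used here do not name the promoter that drives the transgene. Nor do they state whether each array had its own animal, so p-values measure only how far these samples vary, and that variation may be technical.

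These cytokines are secreted or membrane-bound proteins through which epithelium, stroma and leukocytes signal to each other. Interleukin-1 and TNF act through adaptor proteins on NF-kB and stress kinases, most interleukins and the CSFs of granulocytes act through JAK kinases and STAT factors, and Csf1 acts through a receptor tyrosine kinase. Decoy receptors and soluble antagonists bind a ligand or occupy a receptor without passing on the signal. In the prostate, inflammatory cytokines are known from prostatitis and from the leukocytes that enter tumours.

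Levels are log2 values after RMA, a method that corrects background, normalizes the arrays and summarises each probe set. Differences are MT minus wild type with the standard error of the limma fit, levels are mean ± SD (n = 4 in each group), and a gene was counted as changed at an adjusted p under 0.05. The files hold no detection calls. As a measure of background, the highest of 27 control probe sets for Bacillus subtilis transcripts was taken on each array. It lay between 5.55 and 5.86 and was set by a single probe set, while the other 26 reached at most 4.55. A group whose 4 arrays all lay at or below that highest control is called dim here, and it gives only a bound.

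Across all genes the groups differed widely, with 41.1% of the 12393 past the threshold (19.7% higher and 21.3% lower in MT). Correlations between arrays over all genes were 0.996 to 0.997 among MT arrays and 0.992 to 0.994 among wild-type arrays, and MT arrays correlated with wild-type arrays at 0.963 to 0.969. The prostate secretory genes Pbsn, Spink1 and Azgp1, which mark the tissue, lay between 8.33 and 10.77 in MT and between 11.08 and 13.81 in wild type as group means, all lower in MT. The 3' minus 5' value of the Gapdh control, a sign of RNA integrity, ran from 0.45 to 0.64 on MT arrays and from 0.54 to 0.92 on wild-type arrays.

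Of the 101 member genes, 20 rose and 8 fell in the MT prostate, and 73 did not pass. The share that rose, 19.8%, was close to the 19.7% of all genes, and the share that fell, 7.92%, lay below the 21.3% of all genes. At least 2-fold changes were counted for 3 members, against 5.08% of all genes. Tnfrsf12a and Tnf rose by that much and Il33 fell. The groups did not overlap for 26 members, against 40% of all genes. The median difference was 0.06 over the members and -0.01 over all genes. On all 8 arrays, 58 of the 101 members lay at or below the highest Bacillus control, as did 3904 of the 12393 genes. Among receptors 12 rose and 5 fell of 50, with a median of 0.06. Among ligands 6 rose and 3 fell of 41, with a median of 0.05. Among the antagonists and decoys 2 rose and 0 fell of 9, and with limma's unadjusted p under 0.05 the count of lower ones was also 0. The shares of receptors and ligands that passed were not tested against each other.

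The TNF family held the largest rise. Tnfrsf12a, the receptor Fn14 for the ligand TWEAK (chr17:23675445-23677449, GRCm38.p6), had values of 9.17, 9.03, 9.16 and 9.14 on the MT arrays and 7.61, 7.41, 7.64 and 7.56 on the wild-type arrays. All MT values lay above all wild-type values, a difference of 1.57 ± 0.07 or 2.96-fold (adjusted p = 3.59e-08), and its other probe set differed by 1.63. Tnf, the founding ligand of the family and a product of macrophages among other cells (chr17:35199367-35202007), read 7.55, 7.61, 7.78 and 7.52 in MT and 6.52, 6.89, 6.41 and 6.54 in wild type. The groups were again separate, by 1.03 ± 0.10 or 2.04-fold (adjusted p = 1.41e-05). The receptors of TNF itself did not pass. Tnfrsf1a, the receptor with a death domain that most cells carry, averaged 8.88 ± 0.06 in MT and 8.86 ± 0.07 in wild type. Tnfrsf1b, the receptor that leukocytes and endothelium carry, averaged 6.50 ± 0.10 in MT and 6.48 ± 0.06 in wild type. Its second probe set did pass, at 6.41 in MT and 5.78 in wild type (0.63 ± 0.09, adjusted p = 0.000307 over all probe sets), so the probe sets of Tnfrsf1b disagree.

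Other TNF receptors rose by less. Tnfrsf11a, the receptor RANK, averaged 7.03 ± 0.10 in MT and 6.64 ± 0.18 in wild type (0.39 ± 0.09, adjusted p = 0.00589), and its other probe set differed by 0.38. Its ligand Tnfsf11 (RANKL) and the decoy Tnfrsf11b (osteoprotegerin) were dim in both groups, with differences of -0.13 ± 0.07 (adjusted p = 0.166) and -0.03 ± 0.07 (adjusted p = 0.805). Tnfrsf21, the death receptor DR6, averaged 10.42 ± 0.06 in MT and 10.08 ± 0.19 in wild type (adjusted p = 0.0107). Tnfrsf18 (GITR), a receptor of activated and regulatory T cells, was dim in wild type at 5.44 ± 0.12 and averaged 5.75 ± 0.12 in MT (adjusted p = 0.0113). On 2 of 4 MT arrays Tnfrsf18 too lay at or below the highest control, and the bound was only 1.02-fold. It was named after its values were seen. The ligand Tnfsf13b (BAFF), a survival factor of B cells, rose while dim in both groups, with 4.71 ± 0.09 in MT and 4.37 ± 0.11 in wild type (adjusted p = 0.00343). Its receptors were dim in both groups and did not pass, Tnfrsf13c with a difference of 0.16 ± 0.06 (adjusted p = 0.0666) and Tnfrsf13b with 0.27 ± 0.11 (adjusted p = 0.0624). With the array number as a replicate block, Tnfrsf13b had an adjusted p of 0.0224, still between values not above background. Tnfsf10 (TRAIL), which induces apoptosis through death receptors, averaged 3.80 ± 0.06 in MT and 3.62 ± 0.18 in wild type, dim in both. Of 27 TNF family members, 6 rose and 0 fell in limma, and 8 were higher and 0 lower at an unadjusted p under 0.05. The share that rose, 22.2%, was near the 19.7% of all genes. The 21 that did not pass lay between -0.22 (Tnfrsf19) and 0.27 (Tnfrsf13b). Without wild-type array 2 the difference of Tnfrsf19 was -0.45 and passed (adjusted p = 0.0049), and 1 of its other probe sets fell with all arrays (-0.30, adjusted p = 0.0186 over all probe sets).

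**Figure D1:**
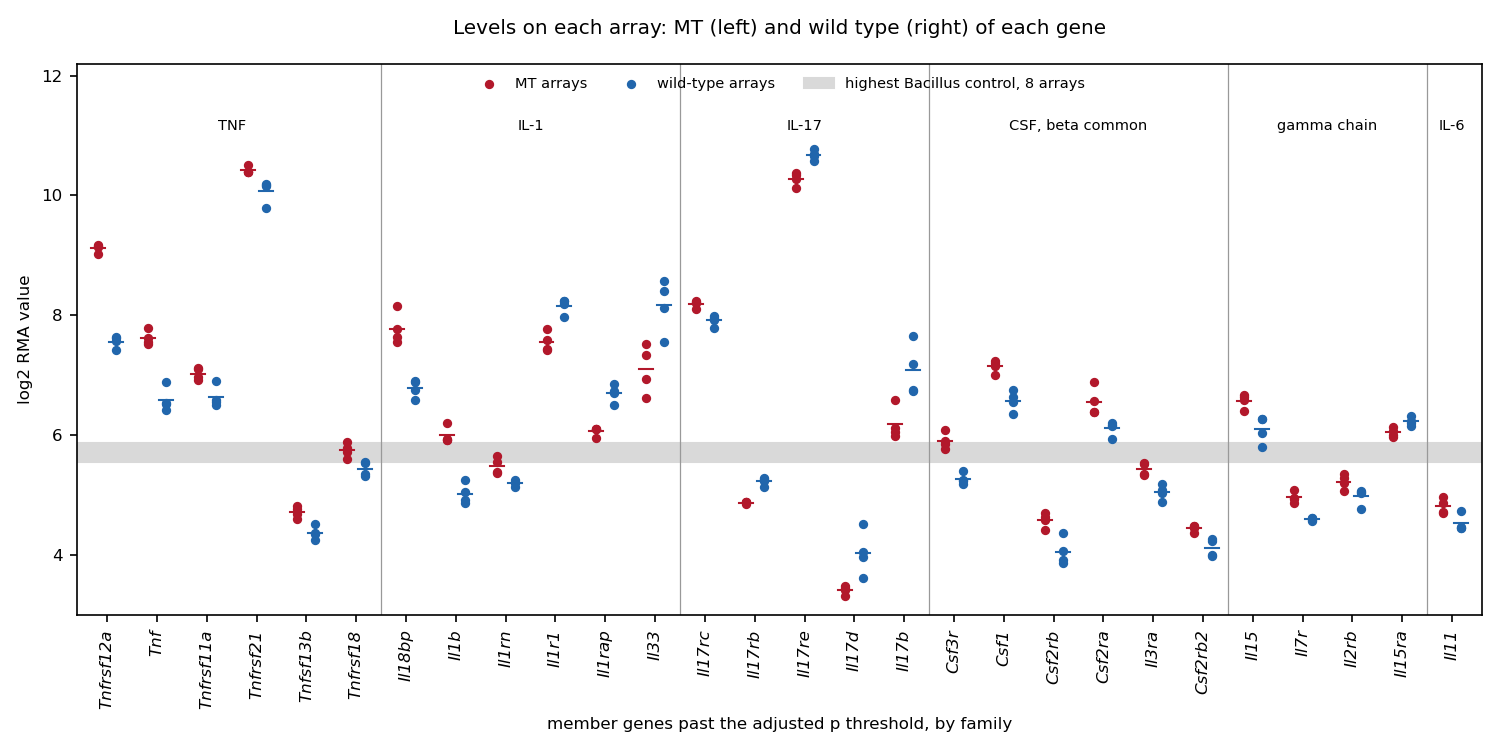
Values of the 28 member genes that passed the threshold, on each of 4 MT arrays (left of each gene) and 4 wild-type arrays (right), as log2 RMA values by family. Short lines are group means and the grey band spans the highest Bacillus control of the 8 arrays, from 5.55 to 5.86. The MT and wild-type points of Tnfrsf12a and Tnf do not overlap, and those of Il33 lie close to each other.

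In the interleukin-1 family, 1 of 7 ligands rose (Il1b) and 1 fell (Il33). Of 5 antagonists or decoys 2 rose (Il18bp and Il1rn), and of 6 receptor chains 2 fell (Il1r1 and Il1rap). Among all genes 19.7% rose and 21.3% fell. Il1b, the secreted inflammatory ligand made by activated myeloid cells (chr2:129364569-129371164), read 5.94, 5.91, 5.92 and 6.21 in MT and 5.05, 5.25, 4.91 and 4.87 in wild type. The wild-type group was dim and the groups were separate. The measured difference was 0.97 ± 0.10 (adjusted p = 1.57e-05), and against the highest control of each wild-type array Il1b was at least 1.21-fold higher. Il1a, the other agonist of the same receptor, was dim in both groups and differed by 0.08 ± 0.08 (adjusted p = 0.458). Il18bp, which binds and neutralizes interleukin-18, read 7.55, 8.16, 7.77 and 7.63 in MT and 6.75, 6.90, 6.89 and 6.59 in wild type. Every MT value lay above the wild-type values (1.00 ± 0.13, adjusted p = 7.53e-05). Il18 itself had 6.43 ± 0.08 in MT and 6.57 ± 0.42 in wild type, and did not pass (adjusted p = 0.559). Without wild-type array 2, where it read 5.98 against 6.56 to 6.90 on the others, its difference was -0.33 (adjusted p = 0.0141). Il1rn, the receptor antagonist of interleukin-1, averaged 5.49 ± 0.13 in MT and was dim in wild type at 5.20 ± 0.05 (adjusted p = 0.0102). Of its 4 MT values 3 also lay at or below the highest control. The MT mean was below the wild-type limit (a bound of -0.23 on the log2 scale), so no rise above that control is shown for Il1rn. The Il1rn values all lay above the other 26 Bacillus controls, which reached at most 4.55. Of its other probe sets, 1 rose by 0.52 and 1 differed by 0.01.

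The receptor chain Il1r1, which binds interleukin-1, read 7.58, 7.42, 7.77 and 7.44 in MT and 7.96, 8.19, 8.24 and 8.23 in wild type. All MT values lay below the wild-type values (-0.60 ± 0.09, 1.52-fold lower, adjusted p = 0.000369). Il1rap, the accessory chain that the receptors of interleukin-1, interleukin-33 and interleukin-36 share, read 6.10, 6.11, 5.95 and 6.09 in MT and 6.71, 6.49, 6.73 and 6.85 in wild type (-0.63 ± 0.08, adjusted p = 9.32e-05). Of its other probe sets, 1 fell by 0.20 on the log2 scale and 1 differed by -0.04. The decoy receptor Il1r2 averaged 5.84 in MT and 5.82 in wild type and differed by 0.02 ± 0.11. Il33, a nuclear cytokine of stromal and epithelial cells that is released on damage (chr19:29925113-29960718), read 6.61, 6.93, 7.33 and 7.52 in MT and 8.12, 7.55, 8.58 and 8.41 in wild type. The highest MT value lay just below the lowest wild-type value, and the spread within each group was wide (-1.07 ± 0.23, 2.09-fold lower, adjusted p = 0.00325). Across the family, 3 of 18 rose and 3 fell, or 16.7% in each direction, against 19.7% and 21.3% of all genes. The 12 others lay between -0.14 (Il18) and 0.20 (Il18rap), among them the interleukin-36 group, which the files name Il1f5, Il1f6, Il1f8 and Il1f9.

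Of 9 measured members of the interleukin-17 family, 4 fell and 1 rose, where 21.3% of all genes fell and 19.7% rose. Of the 4, Il17b and Il17re lay above the highest control in both groups, while Il17rb and Il17d were dim in both. Il17b, a ligand of Il17rb, read 6.05, 5.98, 6.12 and 6.59 in MT and 7.19, 6.74, 6.76 and 7.65 in wild type. The groups did not overlap (-0.90 ± 0.20, 1.87-fold lower, adjusted p = 0.00337). Its receptor Il17rb was dim in both groups and fell, with 4.87 ± 0.02 in MT and 5.23 ± 0.07 in wild type (adjusted p = 0.000645). Il17re, the receptor chain for interleukin-17C on epithelial cells, read 10.37, 10.27, 10.34 and 10.12 in MT and 10.57, 10.69, 10.77 and 10.66 in wild type (-0.40 ± 0.07, adjusted p = 0.00133). Its other probe set differed by -0.07 ± 0.06 (adjusted p = 0.399 over all probe sets). The ligand Il17d was dim in both groups at 3.41 ± 0.08 in MT and 4.04 ± 0.37 in wild type (adjusted p = 0.00601). All 4 of its MT values lay at or below even the newer Bacillus controls (3.52 to 3.90), and its other probe set differed by -0.03. Il17rc, a chain of the receptor for interleukin-17A and interleukin-17F, rose with 8.19 ± 0.06 in MT and 7.91 ± 0.09 in wild type (0.28 ± 0.07, adjusted p = 0.00583), and was named after its values were seen. Its partner chain Il17ra did not pass with the probe set that stands for it (0.23 ± 0.11, adjusted p = 0.122), while its second probe set rose by 0.46, and with the replicate block Il17ra had an adjusted p of 0.0407. Il17a, the ligand of Th17 cells, was dim in both groups, at 5.18 ± 0.07 in MT and 4.97 ± 0.23 in wild type (adjusted p = 0.135), and passed without wild-type array 4 (0.32, adjusted p = 0.0103).

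Among the receptors of the colony-stimulating factors, most calls were of genes dim in 1 group or in both. Of 7 receptor genes in this group 5 rose and 0 fell in limma (6 higher and 0 lower at an unadjusted p under 0.05), against 19.7% of all genes that rose, and of its 6 ligands 1 rose. Of the 5, Csf2ra alone lay above the highest control in both groups, Csf3r was dim in wild type, and Csf2rb, Csf2rb2 and Il3ra were dim in both groups, so their differences are between values not above that limit. Csf3r, the receptor of granulocyte CSF carried by neutrophils, read 5.90, 5.77, 5.85 and 6.08 in MT and 5.19, 5.40, 5.24 and 5.25 in wild type. The groups were separate and wild type was dim, so that Csf3r was at least 1.13-fold higher (measured difference 0.63 ± 0.08, adjusted p = 8.58e-05). On 1 of 4 MT arrays Csf3r also lay at or below the highest control. Csf2ra, the ligand-binding chain of the receptor for granulocyte-macrophage CSF, averaged 6.55 ± 0.24 in MT and 6.11 ± 0.12 in wild type (0.44 ± 0.11, adjusted p = 0.00841), and its other probe set rose by 0.51. The signalling chains Csf2rb and Csf2rb2, near-identical copies whose probe sets may each detect the other, were dim in both groups and rose. They averaged 4.59 ± 0.12 and 4.44 ± 0.06 in MT, against 4.05 ± 0.22 and 4.12 ± 0.15 in wild type, with adjusted p-values of 0.00214 and 0.00722. Il3ra, the chain that binds interleukin-3, was dim too, at 5.43 ± 0.10 in MT and 5.04 ± 0.13 in wild type (adjusted p = 0.0027). The matching ligands Csf2, Csf3 and Il3 were dim in both groups and did not pass, with differences of -0.04 ± 0.10, -0.09 ± 0.06 and -0.04 ± 0.08.

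Csf1, the growth factor of macrophages, read 7.19, 6.99, 7.15 and 7.24 in MT and 6.56, 6.35, 6.63 and 6.75 in wild type. The groups did not overlap (0.57 ± 0.09, 1.49-fold, adjusted p = 0.000442). A second probe set of Csf1 rose by 0.60, and 2 others differed by 0.07 and -0.04. Its receptor Csf1r read 8.75, 8.79, 8.80 and 8.69 in MT and 8.30, 8.07, 8.63 and 8.76 in wild type. The wild-type values spread over a range that reached into the MT range, and the difference of 0.32 ± 0.13 did not pass (adjusted p = 0.0708). Without wild-type array 4 it was 0.43 (adjusted p = 0.0131). Il34, the other ligand of Csf1r, was dim in both groups (0.06 ± 0.07, adjusted p = 0.542).

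Among the cytokines that use the common gamma chain or the interleukin-4 receptor, 3 of 16 rose and 1 fell. Of all genes, 19.7% rose and 21.3% fell. Il15, which sustains natural killer and memory T cells, averaged 6.57 ± 0.12 in MT and 6.09 ± 0.23 in wild type (0.48 ± 0.11, adjusted p = 0.00423). Il15ra, which presents it, averaged 6.04 ± 0.07 in MT and 6.23 ± 0.07 in wild type (-0.18 ± 0.07, adjusted p = 0.0461), a call that the array number as a replicate block ended (adjusted p = 0.0659). It was also lost without any of MT arrays 2, 3 and 4 or wild-type arrays 2, 3 and 4, where the adjusted p lay between 0.0601 and 0.124. Il2rb, a signalling chain for interleukin-2 and interleukin-15, was dim in both groups at 5.22 ± 0.12 in MT and 4.98 ± 0.15 in wild type (adjusted p = 0.0441). That call was lost without any of MT arrays 2, 3 and 4 or wild-type arrays 1 and 4, where the adjusted p lay between 0.0571 and 0.122. Il7r, carried by lymphocytes, was dim as well, with 4.96 ± 0.09 in MT and 4.60 ± 0.02 in wild type (adjusted p = 0.000936), and its other probe set rose by 0.42. Il13ra1, a chain of the receptors for interleukin-13 and interleukin-4, read 7.50, 7.89, 8.07 and 7.92 in MT and 6.80, 7.98, 7.31 and 6.53 in wild type. Its wild-type values ran from below the MT range into it, and the difference of 0.69 ± 0.26 did not pass (adjusted p = 0.0518). With the replicate block it did (adjusted p = 0.0211), as did 1 of its 4 other probe sets, by 0.90. Of the arrays left out in turn, only 2 brought Il13ra1 past the threshold. These were wild-type array 2 (0.97, adjusted p = 0.00147) and MT array 1 (0.81, adjusted p = 0.0429). The ligands of T helper cells Il2, Il4, Il9, Il13 and Il21 were dim in both groups and did not pass, and of these Il4 passed with the replicate block (-0.22, adjusted p = 0.0348).

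The interleukin-6, interleukin-10 and interleukin-12 families gave 1 call among 16 members, where 41.1% of all genes passed. Most of these members were dim in both groups: 4 of 6, 3 of 5 and 5 of 5 in the respective families, against 3904 of all 12393 genes. Il11, a ligand of the interleukin-6 family, was dim in both groups at 4.81 ± 0.13 in MT and 4.53 ± 0.14 in wild type (0.28 ± 0.09, adjusted p = 0.0254), and was named after its values were seen. The call was lost without MT arrays 1 or 3 or wild-type arrays 1, 2 or 4, where the adjusted p lay between 0.0569 and 0.0775. Il6, an acute-phase cytokine, read 2.85, 2.73, 3.07 and 2.80 in MT and 2.91, 3.09, 2.79 and 2.78 in wild type. Its groups overlapped throughout. The shared signalling chain Il6st (gp130) averaged 7.87 ± 0.17 in MT and 7.82 ± 0.11 in wild type (adjusted p = 0.7). Il10, an anti-inflammatory cytokine, read 3.51, 3.44, 3.27 and 3.20 in MT and 3.11, 3.39, 3.35 and 3.28 in wild type. All 8 values of Il6 and of Il10 lay at or below even the newer Bacillus controls (3.52 to 3.90), so a difference was not detectable above background. Il16, a T cell attractant outside these families, was dim in both groups (0.17 ± 0.08, adjusted p = 0.118).

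Promoter sequences are shown for the inflammatory ligands Tnf and Il1b, for Csf1 and Csf3r as a ligand and a receptor of the CSF group that rose, and for Il1rap, which fell. The sequences and coordinates come from RefSeq on GRCm38.p6, which held a promoter for 78 of the 101 genes, and each runs 5′ to 3′ on the gene's strand and ends at the base before the start of transcription. Capitals mark matches on either strand to 4 motifs: NF-kB (GGGA, then any 4 bases, then CC), AP-1 (TGANTCA), the interferon response element (GAAA, any 2 bases, GAAA) and the TATA box (TATAAA).
Tnf, chr17:35202008-35202127, minus strand: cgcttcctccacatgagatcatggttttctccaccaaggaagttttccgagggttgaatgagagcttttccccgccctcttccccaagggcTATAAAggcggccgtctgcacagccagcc
Il1b, chr2:129371140-129371259, minus strand: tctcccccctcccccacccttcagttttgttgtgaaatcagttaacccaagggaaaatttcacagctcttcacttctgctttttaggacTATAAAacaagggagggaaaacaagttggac
Csf1, chr3:107760470-107760629, minus strand: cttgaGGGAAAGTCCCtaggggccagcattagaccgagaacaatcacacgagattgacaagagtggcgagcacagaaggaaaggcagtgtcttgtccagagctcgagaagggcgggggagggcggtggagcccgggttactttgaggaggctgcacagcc
Csf3r, chr4:126024519-126024658, plus strand: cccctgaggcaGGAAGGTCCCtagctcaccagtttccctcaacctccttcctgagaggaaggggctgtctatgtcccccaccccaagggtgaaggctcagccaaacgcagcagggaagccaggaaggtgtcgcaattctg
Il1rap, chr16:26581575-26581704, plus strand: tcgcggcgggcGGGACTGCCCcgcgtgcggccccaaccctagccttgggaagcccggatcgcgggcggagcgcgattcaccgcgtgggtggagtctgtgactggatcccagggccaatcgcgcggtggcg
The shown part of the Csf1 promoter holds 2 overlapping NF-kB matches, on opposite strands, and those of Csf3r and Il1rap hold 1 each. Il1rap is the only member that fell with an NF-kB match, so the promoters shown do not represent the members at large. Within 250 bases before the start, the NF-kB motif was in the promoters of 4 of 17 members that rose, 1 of 7 that fell and 17 of 54 that did not pass, and in 19.7% of all genes with a promoter. The AP-1 motif was in 3 of 17, 2 of 7 and 11 of 54, against 7.82% of all genes. The interferon motif was in 1 of the 17, Tnfsf13b, and 4 of the 54, against 3.46% of all genes. The TATA motif was in 2 of 17, 1 of 7 and 10 of 54, against 14.3%. A match is a description of the letters and not of binding.

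Ligands and their receptors were set side by side, with 27.7% of all members past the threshold. Whether partners changed together more or less often than members at large was not tested. Of 47 ligand and receptor pairs with both partners measured, 26 had neither partner past the threshold. In 1 pair, Il15 and Il2rb, both rose, and in 1, Il17b and Il17rb, both fell. Il2rb and Il17rb were dim in both groups, and the Il2rb call was lost in 8 of 17 alternatives at the same threshold. In 3 pairs the first partner rose and the second fell, namely Il1b and Il1r1, Il1rn and Il1r1, and Il15 and Il15ra. The last of these rests on the Il15ra call that most alternatives ended. The second rests on Il1rn, which was dim in wild type and had most MT values at or below the highest control. The first partner alone rose in 6 pairs, among them Tnf with either TNF receptor and Csf1 with Csf1r. The second partner alone rose in 8 and fell in 2. Several pairs share a gene, so they are not independent. Il33 could not be set beside its receptor Il1rl1, Tnfrsf12a beside Tnfsf12, nor Il17re beside Il17c, since these partners were not analysed here.

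**Figure D2:**
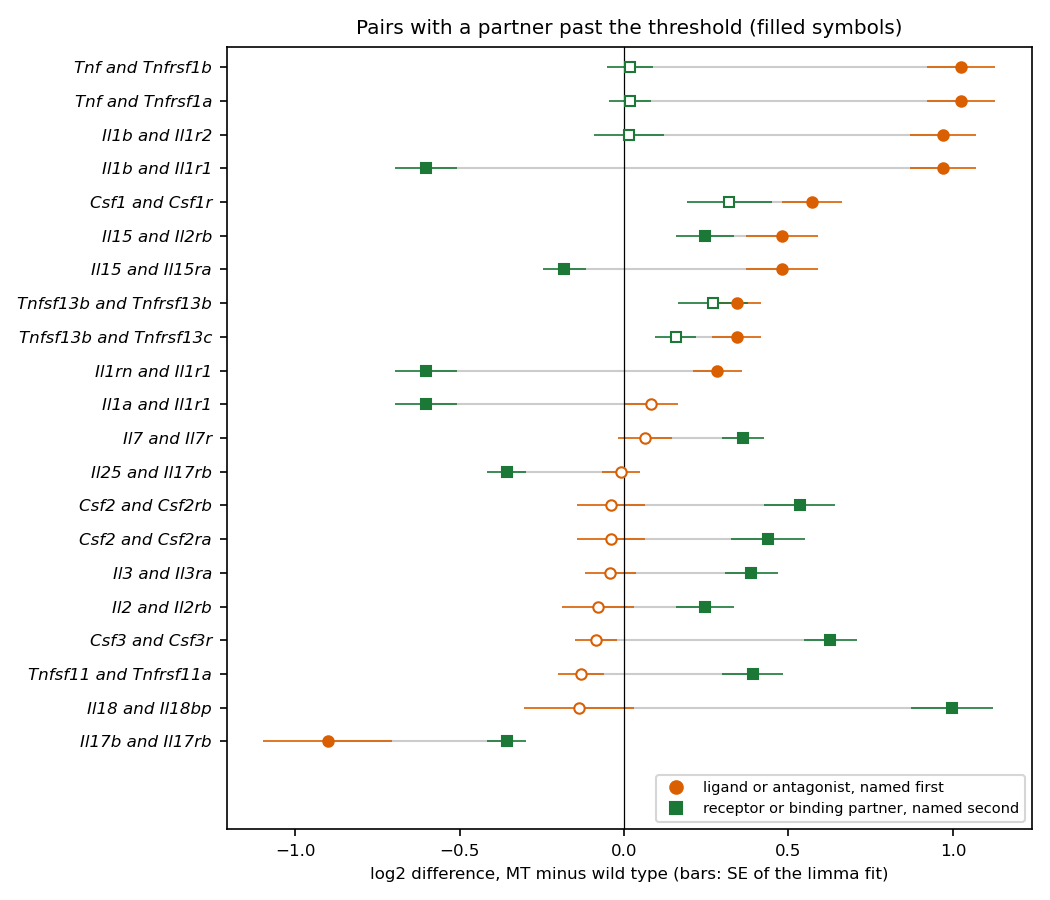
The 21 pairs with at least 1 partner past the threshold, with the log2 difference (MT minus wild type) of the ligand or antagonist as a circle and of the receptor or binding partner as a square. Filled symbols passed the threshold and bars are standard errors of the limma fit. Il1b lies at 0.97 and its receptor Il1r1 at -0.60, while Csf2ra, Csf2rb, Csf3r and Il3ra lie to the right of their ligands Csf2, Csf3 and Il3, which did not pass.

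Of the 101 genes, 33 had more than 1 probe set. When every probe set was tested by itself, 18 of these genes had none past the threshold, 6 had all of theirs past it in a single direction, and 9 had some past it and some not. Over all 22626 probe sets tested this way, 37.8% were past the threshold. No gene had probe sets past it in opposite directions. The 6 were Csf2ra, Il2rb, Il7r, Tnfrsf11a, Tnfrsf12a and Tnfrsf21, all higher in MT.

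Genes of the same pathways whose names do not follow the pattern passed the threshold in both directions, as did 41.1% of all genes. Of 12 other cytokine genes 2 rose and 3 fell (41.7% called). Ltb, the TNF family ligand of lymphoid tissue, averaged 7.32 in MT and 5.52 in wild type (1.81 ± 0.15), Lif of the interleukin-6 family differed by 0.65 ± 0.11, and Kitl, the ligand of Kit, by -1.02 ± 0.13. Of 13 other receptor genes 3 rose and 2 fell (38.5% called), led by Osmr, the oncostatin M receptor, at 7.08 in MT and 5.38 in wild type (1.70 ± 0.20). Fas, the TNF family death receptor, averaged 5.85 in MT and 6.20 in wild type and fell (-0.35 ± 0.09). Of 18 adaptors of the interleukin-1 and TNF receptors 7 rose and 3 fell. Myd88, the adaptor of interleukin-1 receptors, differed by 0.28 ± 0.06 and the TNF receptor adaptors Traf2 and Tradd by 0.62 ± 0.09 and 0.55 ± 0.09, while the kinase Irak1 differed by -0.54 ± 0.06. Among 8 genes of cytokine processing 3 rose and 2 fell. Adam17, the protease that sheds TNF, averaged 7.86 in MT and 7.19 in wild type (0.67 ± 0.07). Casp4, which the mouse uses to sense cytosolic lipopolysaccharide, differed by 1.58 ± 0.16. Casp1, which cleaves interleukin-1 beta and interleukin-18, differed by 0.04 ± 0.07 and did not pass.

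Markers of the cells that make or bind these cytokines moved between the same groups, in which 19.7% of all genes rose and 21.3% fell. In such whole-tissue RNA, fewer cells of a type and less RNA per cell cannot be told apart. Of 6 fibroblast genes 6 fell, and their mean level ran from 7.99 to 8.59 on MT arrays and from 8.86 to 9.53 on wild-type arrays. Of 6 smooth muscle genes 6 fell, with means of 8.66 to 9.46 on MT arrays and 9.73 to 10.40 on wild-type arrays. The fibroblast mean and Il33 were both lowest on MT array 1 and highest on MT array 4 within MT, and both lowest on wild-type array 2 within wild type. Within wild type the fibroblast mean was highest on array 4 and Il33 on array 3. The smooth muscle mean shared with Il33 its highest MT array (4) and lowest wild-type array (2). It was instead lowest on MT array 2 (8.66) and highest on wild-type array 1 (10.40). Il1r1 was lowest on MT array 2 (7.42) and wild-type array 1 (7.96), unlike the fibroblast mean. Basal epithelial genes fell for 3 of 4, with means of 6.56 to 6.72 on MT arrays and 7.15 to 7.79 on wild-type arrays. Their part in the lower Il33, Il1r1, Il1rap and Il17b was not tested. Luminal epithelial genes rose for 5 of 5, with means of 12.07 to 12.16 on MT arrays and 11.23 to 11.45 on wild-type arrays.

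Leukocyte lists held genes that rose, as did 19.7% of all genes, while 21.3% of all genes fell. The shares that rose were 46.2% for macrophages and dendritic cells, 42.9% for T cells and 40% for natural killer cells. For granulocytes the share was 28.6%, and for B and plasma cells 14.3%. Of 13 macrophage and dendritic cell genes 6 rose and 2 fell, with list means from 6.52 to 6.66 on MT arrays and from 5.96 to 6.36 on wild-type arrays. Of 7 granulocyte genes 2 rose, S100a8 and S100a9, with list means from 5.33 to 5.67 on MT arrays and from 4.56 to 4.65 on wild-type arrays, while the neutrophil granule genes Mpo, Elane, Camp and Ngp did not pass and were dim in both groups. Of 7 T cell genes 3 rose (means 4.91 to 5.06 in MT and 4.73 to 4.75 in wild type). The natural killer list had 2 of 5 higher and 1 lower (4.59 to 4.65 in MT and 4.45 to 4.59 in wild type). Of 7 B and plasma cell genes 1 rose, Jchain (list means 5.55 to 6.16 in MT and 4.94 to 5.14 in wild type). MT array 2 stood apart for the B cell receptor gene Cd79b, at 6.85 against 4.99 to 5.27 on the other MT arrays, for the B cell gene Ms4a1, at 6.36 against 4.64 to 5.15, and for the T cell receptor gene Cd3g, at 5.23 against 4.06 to 4.30. Without that array Il7r (0.32, adjusted p = 0.00357), Tnfsf13b (0.31, adjusted p = 0.0134) and Tnfrsf18 (0.30, adjusted p = 0.0334) were still called, and Il2rb was not (0.21, adjusted p = 0.122). The Il2rb call was also lost without MT arrays 3 or 4 or wild-type arrays 1 or 4, so its loss was not particular to MT array 2. Of 8 mast cell genes 0 passed in limma, and at an unadjusted p under 0.05 Ms4a2 was higher and Kit lower (4.42 to 4.46 in MT and 4.40 to 4.59 in wild type). Endothelial genes fell for 2 of 6 (4.97 to 5.16 in MT and 5.13 to 5.59 in wild type). The part of these cells in the higher Tnf, Il1b, Csf1, Csf3r, Csf2ra and lymphocyte receptors was not tested.

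**Figure D3:**
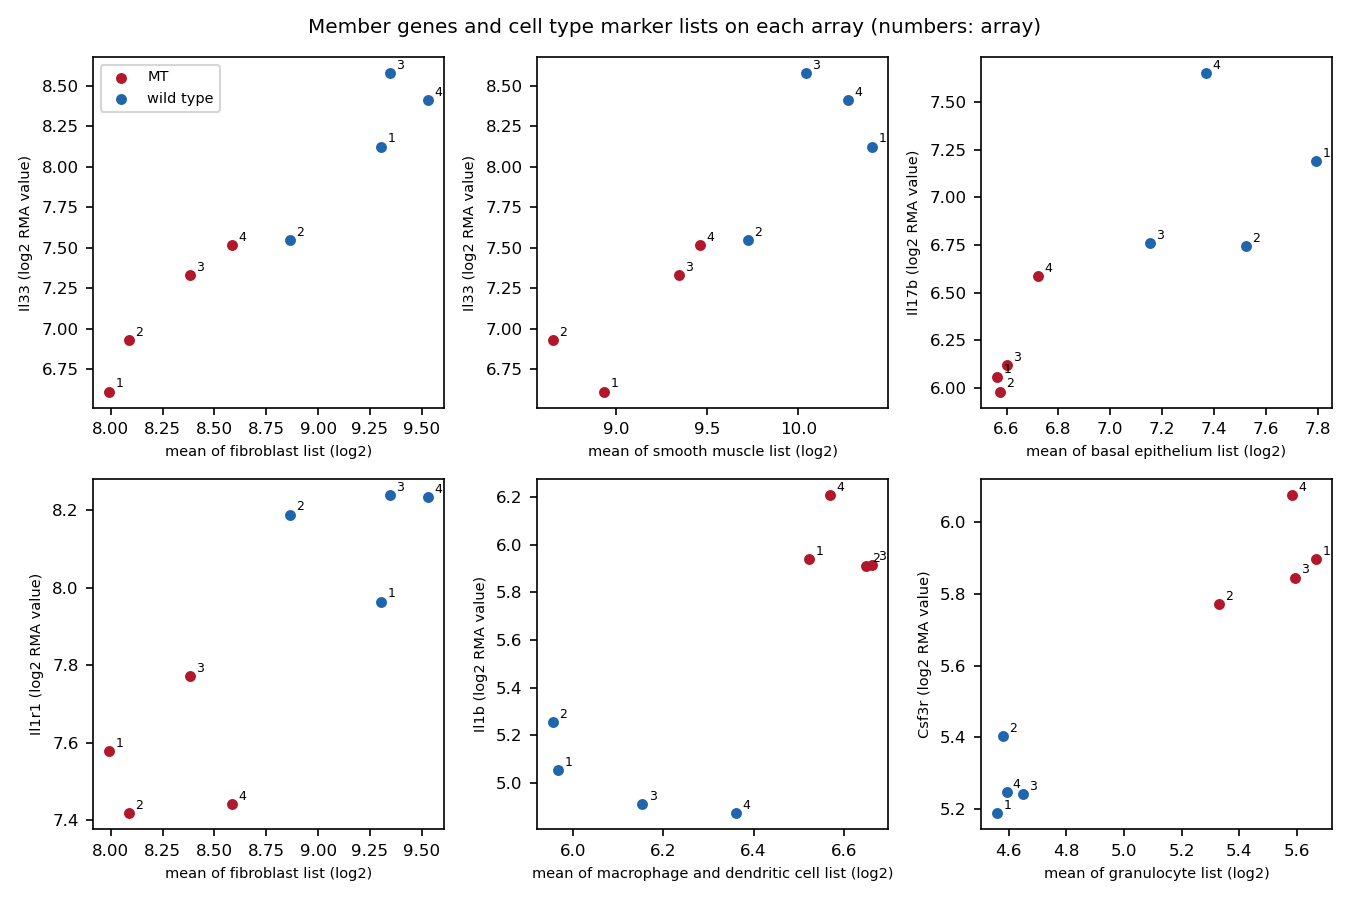
Each panel sets a member gene (vertical, log2 RMA value) against the mean level of a cell type marker list (horizontal, log2) on each of the 4 MT and 4 wild-type arrays, numbered as in the labels. Il33 and the fibroblast mean are lowest on MT array 1 and, within wild type, on wild-type array 2, while within neither group is Il1b highest where the macrophage mean is. Within neither group is Il1r1 lowest where the fibroblast mean is.

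The spread between arrays was larger in wild type for 62 of 101 members, or 61.4%, against 67.3% of all genes. An SD over 0.3 was found in wild type for 7 members and in MT for 1, Il33. Wild-type array 2 was the lowest of its group for Il33, Il18, Csf1r and Tnfrsf19 and the highest for Il13ra1.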

How the data were processed

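RNA of 4 MT and 4 wild-type ventral prostates was extracted with Trizol and measured on Affymetrix arrays after biotin labelling, per the labels' protocols. The deposited log2 values were made by the authors with RMA, per the submitters' processing notes, which give no version. They were used as deposited; array medians ran from 6.21 to 6.23. The number of arrays limits the precision, and no read depth applies.

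Of 22690 probe sets, 64 were controls, 20380 had 1 gene symbol in the platform annotation, 691 several and 1555 none. Each of 12393 genes was represented by the probe set with the highest mean, and 4 probe sets with several symbols that match the pattern were left out. All 101 members were found in the RefSeq table (GRCm38.p6), which changed 0 symbols. Differences were fitted with limma 3.58.1 in R 4.3.3 (lmFit and eBayes, two-sided, Benjamini-Hochberg over all 12393 genes). Single probe sets were fitted and adjusted over all probe sets in the same way. On simulated data with 200 changed genes of 12393, the fit recovered 74.9% of log2 changes of 0.5 and 96.7% of changes of 1. In the data 41.1% of genes passed, and the adjustment depends on that share. These rates therefore do not give the sensitivity of the reported fit. Figures were drawn with matplotlib 3.10.9.

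The members, gene lists and tests were chosen with earlier results of these data known. Genes were named by a rule: the 15 largest rises, up to 12 largest falls (8 were found), their ligand or receptor partners, and 19 fixed genes, of which 17 were measured. Tnfrsf18, Il11, Il17rc and members beyond the rule that are described as not passing were named after their values were seen.

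The labels number the arrays 1 to 4 in each group. Deviations from the group means of same-numbered arrays correlated at 0.10 to 0.18 in all 4 pairs, against a mean of -0.05 for other pairs, and 8 of 8 arrays correlated best with their own number. This pairing is read from the data, not from the labels. The reported fit has no block; a replicate block on the array number was run as an alternative. Alternatives were an intensity trend with a robust prior, array weights, other choices of probe set, a level filter, median centring, further quantile normalization, other thresholds, the replicate block and leaving out arrays.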

Additional observations from a re-analysis of the deposited data

Results flagged for a closer look

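Among 114 groups of 4 arrays that were examined, 6 held an array whose gap to the nearest other, relative to the whole range, exceeded Dixon's critical value for 4 samples. Chance gives about 1 in 20 such groups, which is close to this count. Il1b read 6.21 on MT array 4 and 5.91 to 5.94 on the other MT arrays. Tnfrsf21 read 10.51 on MT array 3, with 10.39 to 10.40 on the others of that group, and 9.79 on wild-type array 3, with 10.15 to 10.19 on the others. Il1rap read 5.95 on MT array 3 and 6.09 to 6.11 on the other MT arrays. Il2rb read 4.76 on wild-type array 1 and 5.03 to 5.07 on the other wild-type arrays, and its call was lost without that array (adjusted p = 0.11). Il11 read 4.74 on wild-type array 3 and 4.45 to 4.46 on the others, and without that array its adjusted p was 0.0059.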

How the results depend on the processing

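Of the results recomputed, no called value changed its sign under the alternatives run, and 23 of the 28 called members kept their call in every alternative with the same threshold in which they were tested. The counts of members higher and lower in MT were 20 and 8. Among genes at or above the median level, where 18 members were tested, they were 8 and 4, with 2 ligands and 5 receptors higher and 2 receptors lower. There 12 of 18 members were called, against 60.3% of all genes, so the lower share of calls among all members than among all genes was not seen at these levels. Against a minimum log2 change of 0.5 they were 4 and 0, with 2 ligands and 1 receptor higher and 0 of either lower. With only probe sets whose names carry no suffix for shared sequence, where 89 members were tested, 4 members were lower, of which 1 was a ligand and 3 were receptors. These alternatives test fewer genes or a larger change by construction. At an adjusted p under 0.01, 15 members were higher and 7 lower. Of all genes tested, 29.6% passed at that threshold, 7.08% against the minimum change of 0.5 and 37.9% with only the unsuffixed probe sets.

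With the array number as a replicate block, 23 members were higher and 8 lower: 27 of the 28 calls remained, Il15ra was lost (adjusted p = 0.0659), and Il13ra1, Tnfrsf13b, Il17ra and Il4 were gained. Of all genes, 42% passed in that fit. Leaving out each array in turn gave 18 to 22 members higher and 7 to 9 lower, 5 to 6 ligands higher and 3 to 4 lower, and 11 to 14 receptors higher and 4 to 5 lower. In these fits 36.1% to 40.1% of all genes passed. Of 17 alternatives at the same threshold, Il15ra lost its call in 14, among them the intensity trend, array weights, the mean of probe sets, unsuffixed probe sets and median centring. Il2rb lost its call in 8, the intensity trend and further quantile normalization among them, and Il11 in 6, all by leaving out arrays. Il1rn and Il17d lost theirs among unique probe sets (0.01, adjusted p = 0.935, and -0.03, adjusted p = 0.847). Csf1r was called with array weights (adjusted p = 0.0451), and Tnfrsf1b with the mean of its probe sets (0.33, adjusted p = 0.00235). The causes were not tested. Against the newer Bacillus controls alone, an alternative chosen after seeing the data, 3 members in place of 58 lay at or below background on all 8 arrays, so most members called dim depend on which control sets the limit.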
